A study of Mus musculus with 24 samples.

Results

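The genes described here are 10 genes of the choroid plexus and leptomeninges, namely Ttr, Kl, Folr1, Otx2, Clic6, Aqp1, Enpp2, Igf2, Sulf1 and Steap2. They were picked by gene symbol from the 22274 genes of the deposited table, and all 10 were found. The list was drawn up from earlier results of these libraries, in which these genes were high in hippocampal Sham and lower in hippocampal PEL, so their levels in those groups are given as a description. RNA was sequenced from 24 mouse brain libraries in 8 groups of 3. The paper's animals were male C57BL/6 J mice, and PEL is a pituitary stalk electrical lesion, in which electric current cuts the link between hypothalamus and pituitary. Hypothalamic groups were Sham, Sham+GH, PEL at day 3 (PEL_3d), PEL+GH at day 3, PEL at day 10 (PEL_10d) and PEL+GH at day 10, where GH is growth hormone. Hippocampal groups were Sham and PEL at day 10. The labels put every Sham library at day 0, so lesion and time after the operation cannot be told apart in any comparison with Sham. The hypothalamic pieces held the supraoptic and paraventricular nuclei, and no source used here gives mouse ages, the GH dose or how the hippocampus was dissected. The labels do not say whether the libraries of a group came from separate mice, and p-values measure the spread between these libraries, which may be technical.

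The choroid plexus is a folded sheet of epithelium that hangs in the brain ventricles and secretes cerebrospinal fluid. In the lateral ventricle it lies against the hippocampus, so a hippocampal dissection can include more or less of it. Another sheet hangs from the roof of the third ventricle. The leptomeninges are the thin fibroblast-rich membranes on the brain surface. Ttr (transthyretin), the thyroid hormone carrier of the cerebrospinal fluid, is among the most abundant transcripts of choroid plexus epithelium. The same epithelium expresses Kl (klotho, a co-receptor for a fibroblast growth factor), Folr1 (a folate receptor), Clic6 (a chloride channel-like protein), Aqp1 (a water channel), Otx2 (a homeodomain transcription factor needed to form the tissue) and Steap2 (a metalloreductase). Enpp2 (autotaxin, which makes lysophosphatidic acid) is expressed by choroid plexus and by oligodendrocytes. Igf2 (an insulin-like growth factor) is made by choroid plexus, leptomeninges and vessels, and Sulf1 (an extracellular sulfatase that edits heparan sulfate) by several cell types.

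The members lie on 8 chromosomes of the GRCm38 build, and the span given for each is the annotated gene with its exons and introns. Kl spans chr5:150952607-150993817 on the plus strand and Steap2 chr5:5664829-5694578 on the minus strand. Otx2 spans chr14:48657677-48673819, Enpp2 chr15:54838901-54952892, Igf2 chr7:142650766-142666816 and Folr1 chr7:101858331-101870788, all on the minus strand. Clic6 spans chr16:92485736-92541243, Aqp1 chr6:55336432-55348555 and Sulf1 chr1:12692277-12861192, all on the plus strand. The annotation places another gene over Folr1, Otx2, Clic6, Enpp2 and Igf2, among them the antisense transcripts Otx2os1 and Igf2os, and whether reads were counted by strand is not given in the sources used here, so reads of these members could include those of the partner.

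Otx2 proteins bind DNA with a TAATCC core, and since Otx2 is itself a member, the promoters held for members were searched for these letters on both strands, where the reverse strand reads GGATTA. RefSeq promoter windows were matched for 5 of the 10 members (Kl, Aqp1, Igf2, Otx2 and Steap2), with 13 windows among them. The 250 bases before the start site held the core in 2 of these 13 windows, 1 of Steap2 and 1 of Otx2, against 6.25% of the 32851 windows of all genes. The Otx2 window with the core lies wholly within annotated exons, so outside exons 1 of the 13 windows held it. The Steap2 window is shown because it holds the core on either strand, and the Kl window as a member promoter without it. Both are the bases before the annotated start on the gene's own strand, without bases of annotated exons, in GRCm38.p6, with the core in capitals. The Steap2 stretch covers chr5:5694579-5694818 and the Kl stretch chr5:150952357-150952606.
Steap2: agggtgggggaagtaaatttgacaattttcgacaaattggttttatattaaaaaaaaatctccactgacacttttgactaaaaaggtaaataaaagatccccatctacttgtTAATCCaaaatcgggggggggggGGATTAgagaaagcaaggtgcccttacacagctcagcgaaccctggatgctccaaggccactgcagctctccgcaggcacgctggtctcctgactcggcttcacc
Kl: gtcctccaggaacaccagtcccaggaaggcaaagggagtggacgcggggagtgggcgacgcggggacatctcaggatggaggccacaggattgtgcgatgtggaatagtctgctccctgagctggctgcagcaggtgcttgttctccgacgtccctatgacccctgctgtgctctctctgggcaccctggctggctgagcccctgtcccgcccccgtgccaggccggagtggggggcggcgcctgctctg
The matches in Steap2 begin 138 and 115 bases before the start site. They are a description of letters and not of binding.

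The tissue labels were checked first, because a result on these genes depends on which tissue a library holds. The summed FPKM (fragments scaled to gene length and library size) of 15 hypothalamic genes, among them Avp, Oxt and Pmch, was 1012 to 6764 in 17 of the 18 libraries labelled hypothalamus, and that of 13 hippocampal genes was 35.3 to 49.99. The library labelled hypothalamic Sham 1 held 13.7 and 279 instead. The library labelled hippocampal Sham 1 held 1312 and 44.8, while the other 5 hippocampal libraries held 2.59 to 7.86 and 298 to 398. Each of these libraries thus carried the genes of the other tissue, and members are described below with and without them. The hippocampal Sham 3 library, whose tissue field names the hypothalamus, held 3.37 for the hypothalamic and 343 for the hippocampal genes and was kept with the group of its title. Counts of libraries of the same group were compared by a chi-square per degree of freedom, which was 156 to 160 for the 4 pairs with a library labelled Sham 1 and 3.19 to 19.7 for the other 20 pairs. Totals were 15095267 to 17973494 counts per library.

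**Figure D1:**
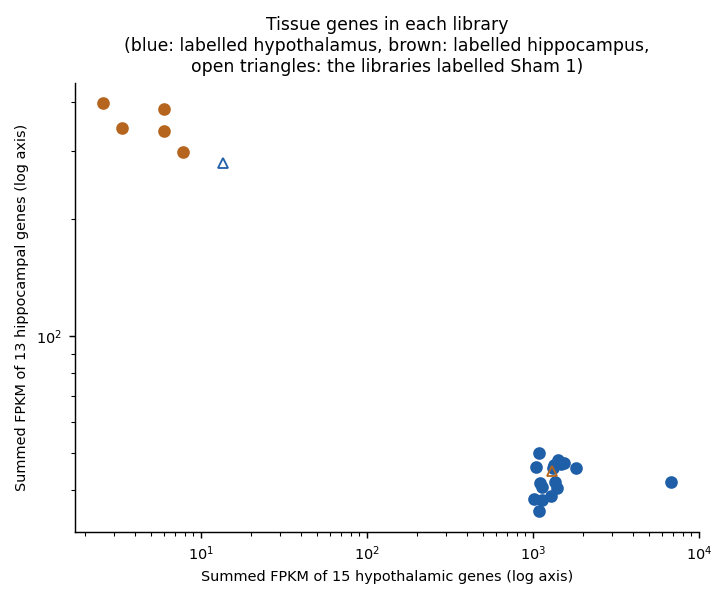
Summed FPKM of 13 hippocampal genes against that of 15 hypothalamic genes in each of 24 libraries, both on log axes, with libraries labelled hypothalamus in blue, those labelled hippocampus in brown and the libraries labelled Sham 1 as open triangles. The triangle labelled hypothalamus (13.7 and 279) lies beside the hippocampal libraries, and the triangle labelled hippocampus (1312 and 44.8) lies among the hypothalamic ones.

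Ttr (chr18:20665280-20674321, plus strand), the carrier that marks choroid plexus epithelium, reached 14320 FPKM in the library labelled hypothalamic Sham 1, 4157 in hippocampal Sham 2 and 5224 in hippocampal Sham 3. In the library labelled hippocampal Sham 1 it was 3.995 FPKM. In hippocampal PEL_10d it was 116, 28.5 and 767 FPKM, and in the 17 hypothalamic libraries other than Sham 1 it ran from 0.27 to 11.2 FPKM. Ttr therefore stood above 20 FPKM in 6 libraries, which are the 6 libraries with hippocampal genes. In bulk RNA, fewer cells of a type and less RNA per cell cannot be told apart, and this holds for every level below.

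Kl, Folr1, Otx2, Clic6 and Aqp1 were also highest in the 3 libraries with over 1000 FPKM of Ttr. Kl was 146 FPKM in the library labelled hypothalamic Sham 1, 55.2 and 65.1 in hippocampal Sham 2 and 3, 6.52, 5.90 and 12.96 in hippocampal PEL_10d, and 2.10 to 6.04 in the 17 hypothalamic libraries. Folr1 was 115, then 35.7 and 39.2, then 1.95, 1.52 and 4.41 FPKM, and 0.36 to 1.94 in the 17 hypothalamic libraries. Otx2 was 44.5, then 14.3 and 16.3, then 3.96, 0.93 and 2.45 FPKM, and 0.14 to 1.58 in the hypothalamic ones. In each of these 3 genes the libraries with over 1000 FPKM of Ttr stood clear of all others. Clic6 was 92.8, then 32.2 and 36.5, then 4.24, 1.30 and 5.18 FPKM in the same order, and Aqp1 35.1, then 10.3 and 14.1, then 0.36, 0.15 and 1.81 FPKM. Clic6 in hippocampal PEL_10d lay inside or below its hypothalamic range of 3.05 to 8.37 FPKM, and 2 of the 3 PEL_10d libraries of Aqp1 and 1 of the 3 of Kl, Folr1 and Otx2 each lay inside the hypothalamic range of that gene.

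Among the other 4 members, Enpp2 was highest in those 3 libraries too, while Igf2, Sulf1 and Steap2 each had a hypothalamic library above hippocampal Sham 2 or 3. Enpp2 was 2874 FPKM in the library labelled hypothalamic Sham 1, 879 and 1081 in hippocampal Sham 2 and 3, 121, 69.1 and 141 in hippocampal PEL_10d, and 69.1 to 118 in the 17 hypothalamic libraries. Igf2 was 176 FPKM in the library labelled hypothalamic Sham 1, 53.2 and 65.3 in hippocampal Sham 2 and 3 and 9.32, 6.99 and 10.7 in hippocampal PEL_10d, while the 17 hypothalamic libraries ran from 33.0 to 241. Sulf1 was 54.0 FPKM, then 17.9 and 21.5, then 2.54, 1.60 and 2.85, against 14.5 to 28.2 in the hypothalamus. Steap2 was 16.2 FPKM, then 6.74 and 7.22, then 1.87, 1.57 and 1.85, against 5.40 to 7.56. For Igf2, Sulf1 and Steap2 the hypothalamic range took in hippocampal Sham 2 and 3, although Ttr was at most 11.2 FPKM in these hypothalamic libraries.

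**Figure D2:**
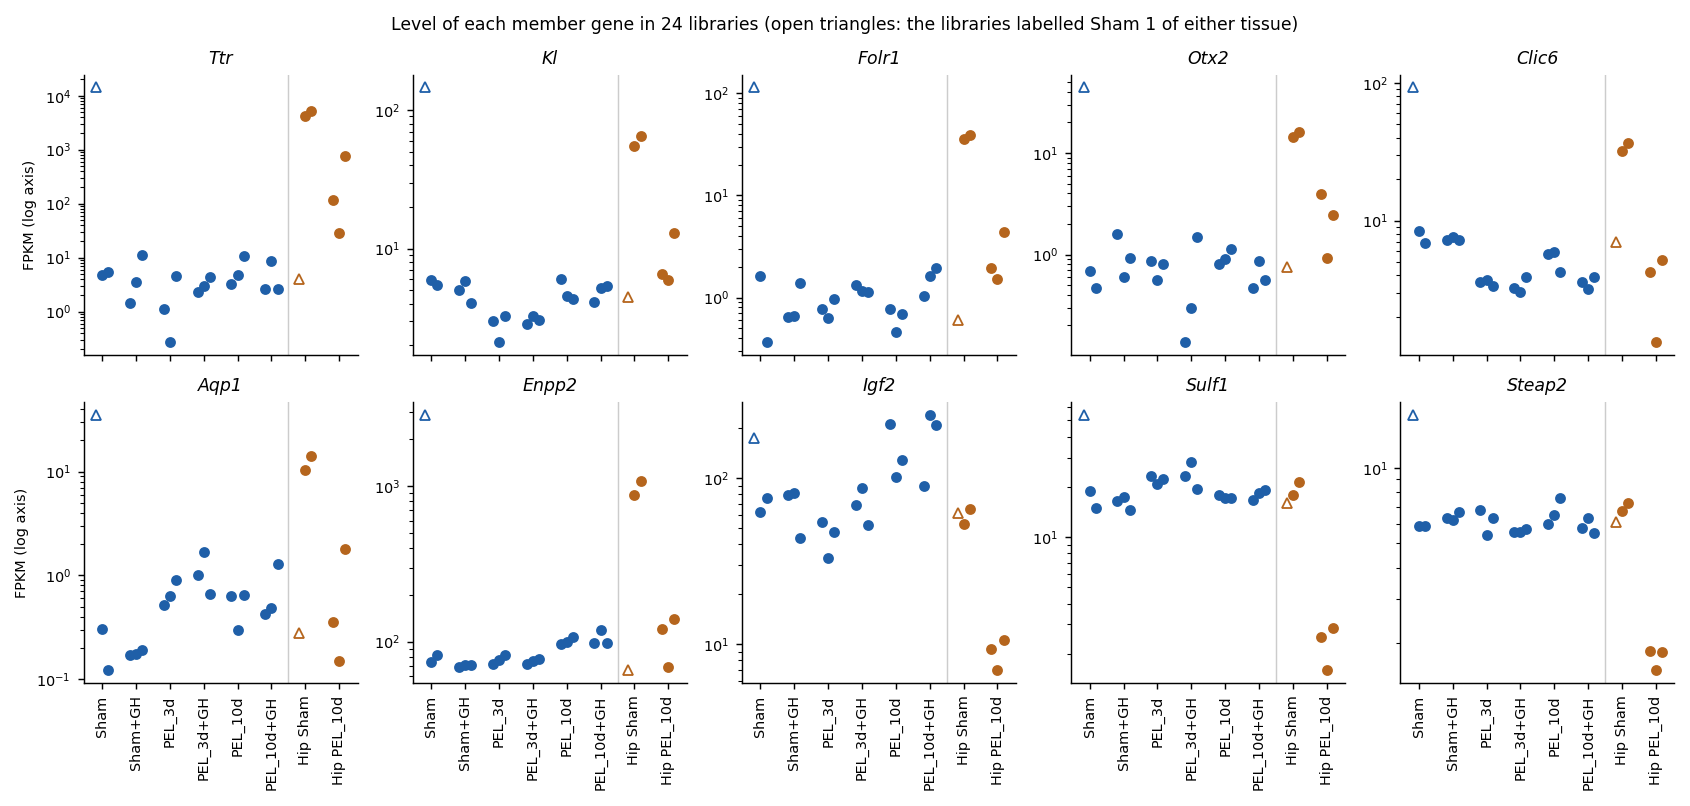
FPKM of each of the 10 members in 24 libraries, on log axes that differ between panels, by group, with hypothalamic libraries in blue, hippocampal ones in brown and the libraries labelled Sham 1 as open triangles. Ttr spans 0.27 to 14320 FPKM, and Igf2, Sulf1 and Steap2 are lowest in the 3 hippocampal PEL_10d libraries.

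Among the 6 libraries with hippocampal genes, the members kept a nearly fixed proportion to Ttr where Ttr was high. Over the 3 libraries with at least 1000 FPKM of Ttr, Ttr itself varied 3.45-fold, whereas the ratio of each of the other 9 members to Ttr varied by at most 1.5-fold. Per 1000 FPKM of Ttr there were 201 to 211 FPKM of Enpp2, 12.3 to 12.8 of Igf2, 10.2 to 13.3 of Kl, 7.51 to 8.58 of Folr1 and 6.48 to 7.74 of Clic6. The same ratios were 3.77 to 4.30 for Sulf1, 3.11 to 3.44 for Otx2, 2.45 to 2.69 for Aqp1 and 1.13 to 1.62 for Steap2. Of 24 further choroid plexus genes, among them Kcnj13, Cldn2 and Slc4a5, 20 also kept their ratio to Ttr within 1.5-fold. That list too was chosen with earlier results of these data known.

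The hippocampal PEL_10d 3 library, with 767 FPKM of Ttr, extended these ratios to an 18.7-fold range of Ttr. There 8 of the 9 other members lay within 1.5-fold of the mean ratio of the 3 libraries above, with 184 FPKM of Enpp2, 13.9 of Igf2, 16.9 of Kl, 6.76 of Clic6, 5.75 of Folr1, 3.71 of Sulf1, 3.19 of Otx2 and 2.36 of Aqp1 per 1000 of Ttr. Steap2 was the exception, at 2.41 per 1000 and 1.75 times the mean ratio. In hippocampal PEL_10d 1 and 2, with 116 and 28.5 FPKM of Ttr, the ratios rose, to 1043 and 2426 for Enpp2 and to 80.4 and 246 for Igf2. In the 17 hypothalamic libraries Enpp2 stayed within 69.1 to 118 FPKM while Ttr ran from 0.27 to 11.2. These ratios describe 4 libraries and were not tested.

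**Figure D3:**
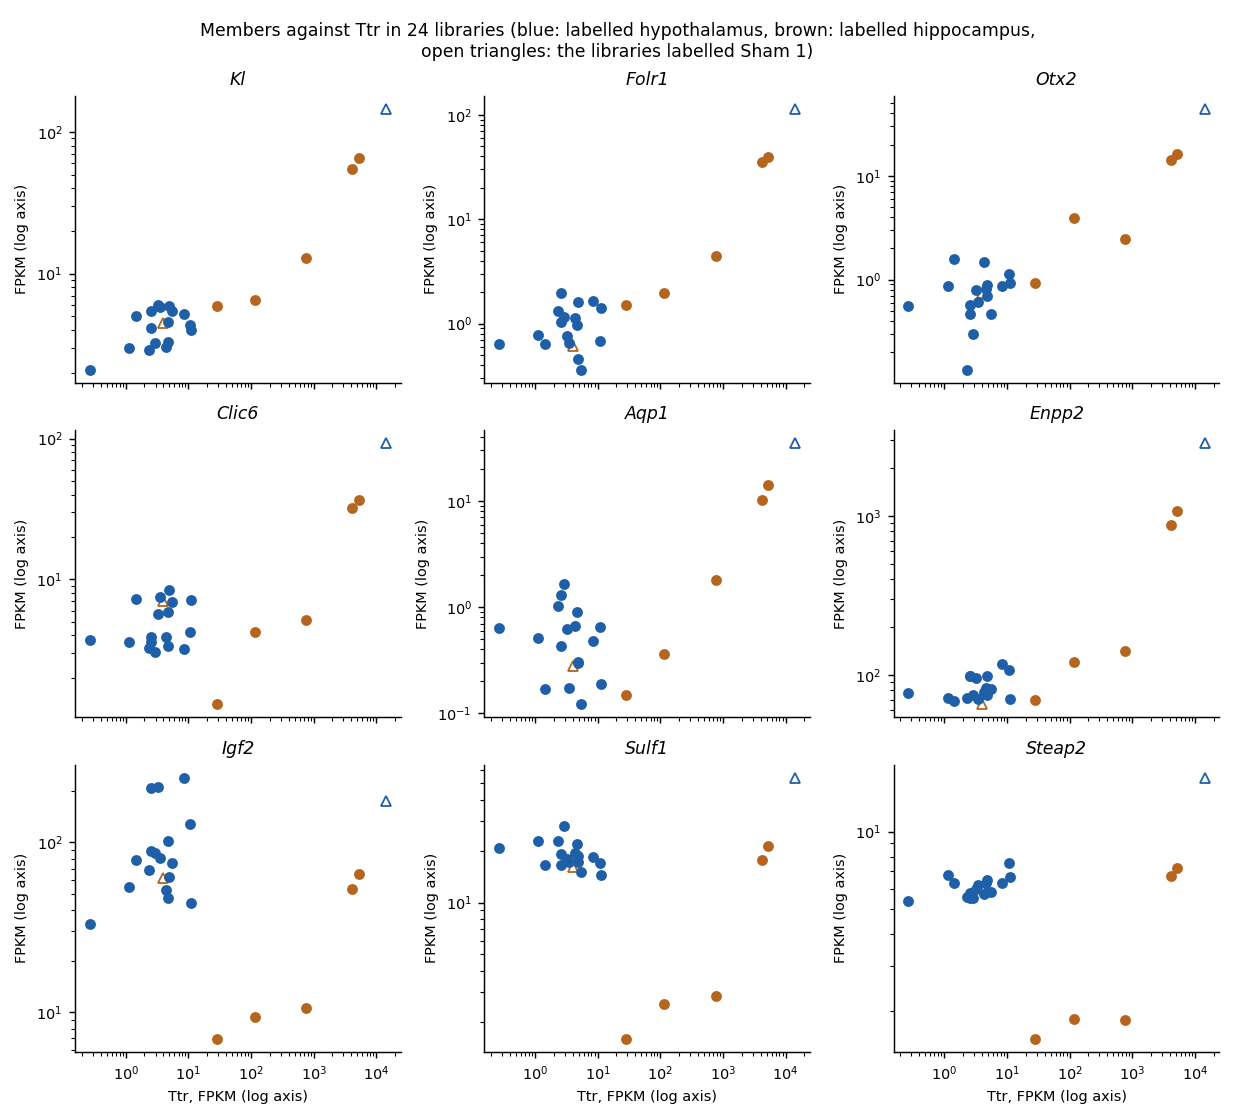
FPKM of 9 members against that of Ttr in 24 libraries, all on log axes, with libraries labelled hypothalamus in blue, those labelled hippocampus in brown and the libraries labelled Sham 1 as open triangles. Libraries with over 700 FPKM of Ttr fall along a rising line in each panel, and the blue points at 0.27 to 11.2 FPKM of Ttr form a cloud that lies above the lowest brown points for Igf2, Sulf1 and Steap2.

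Hippocampal PEL_10d was set against hippocampal Sham as a description, since the list was chosen on it. With all 3 Sham libraries the fitted log2 fold changes ran from -3.43 (Aqp1) to -1.96 (Steap2), and none of the 10 members had an adjusted p under 0.05 in edgeR, as none of the 14039 genes tested had (0%). At an unadjusted p under 0.05 there were 6 members beside 10.2% of genes, and DESeq2 called 4 members beside 231 of 14039 genes. Without the library labelled Sham 1, the log2 fold changes ran from -4.04 (Aqp1) to -2.13 (Steap2), and 9 members were called lower and none higher, against 4.07% and 2.09% of 14191 genes tested (6.15% in all), a count that the choice of the list fixed. Ttr had the widest error of the 10, with a log2 fold change of -3.96 and a standard error of 1.04, since its 3 PEL_10d libraries spread over 28.5 to 767 FPKM. All PEL_10d libraries lay below Sham 2 and 3 in every member, as the choice of the list required, and in 17.5% of the 14048 genes at 1 FPKM or more in at least 3 libraries. With the library labelled Sham 1 included, the groups did not overlap in 4 members, namely Clic6, Igf2, Sulf1 and Steap2, beside 11.3% of those genes.

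Genes of other cell types in the same libraries are given beside this difference. These lists too were chosen with earlier results of these data known, so their counts are a description. The summed FPKM of the 24 further choroid plexus genes was 406 and 490 in Sham 2 and 3 and 55.7 to 96.0 in PEL_10d, with all 24 called lower without the library labelled Sham 1, at a median log2 fold change of -3.34 against 0.01 over all genes. With that library included, none of the 23 tested was called (median -2.82), nor was any ependymal, leptomeningeal or oligodendrocyte gene, in edgeR fits that called 0% of all genes. In the fit without it, which called 2.09% of genes higher and 4.07% lower, 2 of 11 ependymal genes were called lower and 10 of 11 had a log2 fold change under 0 (median -0.99). In the same fit 1 of 19 leptomeningeal genes was called higher and 2 lower, 2 of 13 hippocampal genes higher and 2 lower, 1 of 8 endothelial genes lower, and none of the 10 oligodendrocyte genes in either direction. The ependymal sum was 88.8 and 92.4 FPKM in Sham 2 and 3 and 95.1, 45.0 and 38.0 in PEL_10d. The leptomeningeal sum was 107 and 142 FPKM in Sham and 67.4 to 99.8 in PEL_10d, but Igfbp2 made up 69.3 and 92.8 of it in Sham and 10.2 to 22.8 in PEL_10d, and without that gene the sum was 37.9 and 48.8 against 57.3, 89.7 and 44.6. Of that remainder, Dcn, a small matrix proteoglycan, made up 5.46 and 4.83 FPKM in Sham against 26.7, 65.0 and 18.4 in PEL_10d. Where the remainder was higher in PEL_10d, this rested on Dcn. In the fit without the library labelled Sham 1, 6 of the 19 leptomeningeal genes had a log2 fold change above 0 (median -0.20). The endothelial sum was 110 and 117 against 99.6 to 104, and the hippocampal sum 398 and 343 against 298 to 384. The amount of choroid plexus taken with the hippocampus was not measured, and its part in the difference was not tested.

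Hippocampus was set against hypothalamus at day 10 after PEL, again as a description, since low values in the same 3 hippocampal PEL_10d libraries had a part in the choice of the list. In edgeR 4 members were called higher in hippocampus and 3 lower, beside 29.7% and 30.9% of 14561 genes tested (60.6% in all), and nothing is read from these counts. Ttr was 116, 28.5 and 767 FPKM in hippocampus and 3.26, 4.81 and 10.8 in hypothalamus, a log2 fold change of 5.85 (SE 1.18). All 3 hippocampal libraries were above all 3 hypothalamic ones, by 57.7-fold in the fit. Folr1 had a log2 fold change of 2.32 (SE 0.48), also without overlap. For Otx2 it was 1.54 (SE 0.38) and for Kl 1.01 (SE 0.28), although 1 hippocampal library of each lay within the hypothalamic range in FPKM.

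Igf2, Sulf1 and Steap2 were lower in every hippocampal PEL_10d library than in every hypothalamic one. Igf2, the growth factor, was 9.32, 6.99 and 10.7 FPKM against 213, 102 and 128, a log2 fold change of -3.83 (SE 0.30) or 14.2-fold less in the fit. Sulf1 was 2.54, 1.60 and 2.85 FPKM against 18.003, 17.2 and 17.2, a log2 fold change of -2.71 (SE 0.13). Steap2 differed by -1.62 (SE 0.17). Clic6, Aqp1 and Enpp2 had log2 fold changes of -0.32 (SE 0.39), 0.80 (SE 0.77) and 0.40 (SE 0.22), with overlapping libraries.

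The lists split in the same comparison. Of 20 leptomeningeal genes, 19 were lower in hippocampus and none higher (median log2 fold change -3.64, against -0.02 over all genes), and Mgp, a matrix protein, fell by 3.56 and Col3a1, a fibrillar collagen, by 5.40. The leptomeningeal sum in the hypothalamus was 369 to 679 FPKM in PEL_10d and 235 and 260 in Sham 2 and 3, so these differences describe lesioned mice. Of 19 further choroid plexus genes tested, 5 were higher and 7 lower, shares near the 29.7% and 30.9% of all genes. Their summed levels were 55.7 to 96.0 FPKM in hippocampal and 96.6 to 112 FPKM in hypothalamic PEL_10d libraries. No oligodendrocyte gene of 10 was called in either direction.

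In the hypothalamus, the lesion was compared in the mice given GH, since PEL+GH and Sham+GH share no library with the comparisons that chose the list. At day 3, PEL+GH against Sham+GH gave 5 called members, 2 higher and 3 lower, against 26.9% and 25.2% of 14743 genes tested (52.1% in all). In a fit over all 8 groups none of the 5 was called, and 4 were in that fit without both libraries labelled Sham 1. The percentages above do not belong to those fits. Aqp1, the water channel, was 1.02, 1.66 and 0.66 FPKM after PEL and 0.17, 0.17 and 0.19 in Sham+GH, a log2 fold change of 2.60 (SE 0.42, adjusted p = 0.00055). All 3 lesion libraries were above all 3 Sham+GH libraries, on 31 to 69 against 7 to 8 counts. Sulf1 was 23.1, 28.2 and 19.5 FPKM against 16.6, 17.3 and 14.5, higher by 0.49 (SE 0.12, adjusted p = 0.0060), with no overlap.

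Clic6, the chloride channel-like protein, was 3.24, 3.05 and 3.87 FPKM after PEL+GH at day 3 and 7.26, 7.55 and 7.17 in Sham+GH, so that it was 2.20-fold lower (log2 fold change -1.13, SE 0.11, adjusted p = 2.3e-05). Kl was 2.87, 3.24 and 3.05 against 5.02, 5.80 and 4.02 FPKM, a log2 fold change of -0.72 (SE 0.13, adjusted p = 0.0013). Neither gene overlapped between the groups. Steap2 was 5.57, 5.53 and 5.71 against 6.31, 6.195 and 6.67 FPKM, a log2 fold change of -0.25 (SE 0.08, adjusted p = 0.029). That call was lost when Sham+GH 1 (adjusted p = 0.076), Sham+GH 3 (0.12) or PEL_3d+GH 1 (0.10) was left out. Ttr, Folr1, Otx2, Enpp2 and Igf2 did not pass the test, with log2 fold changes between -0.84 (Otx2, SE 0.59) and 0.34 (Folr1, SE 0.36).

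At day 10, PEL+GH against Sham+GH gave 4 called members, 3 higher and 1 lower, against 17.7% and 13.3% of 14686 genes tested (30.9% in all). In the fit over all 8 groups only Igf2 of these was called (adjusted p = 0.040), and 4 members were without both libraries labelled Sham 1. Here too the percentages above do not belong to those fits. Clic6 was 3.59, 3.19 and 3.91 FPKM against the same 7.26, 7.55 and 7.17, a log2 fold change of -1.06 (SE 0.09, adjusted p = 3.8e-05). Enpp2, the lysophosphatidic acid enzyme, was 98.0, 118 and 98.2 FPKM against 69.1, 70.8 and 71.0, a log2 fold change of 0.57 (SE 0.07, adjusted p = 0.00040). Igf2 was 89.4, 241 and 209 FPKM against 79.3, 81.4 and 44.0, a log2 fold change of 1.34 (SE 0.34, adjusted p = 0.014). Its groups did not overlap, but the lowest PEL_10d+GH library was close to the highest Sham+GH library, and the call was lost without Sham+GH 3 (adjusted p = 0.060) or PEL_10d+GH 2 (0.053). Aqp1 was 0.43, 0.48 and 1.30 FPKM against 0.17, 0.17 and 0.19, a log2 fold change of 2.02 (SE 0.50, adjusted p = 0.013), and without Sham+GH 1 its adjusted p was 0.0502. Kl, which was lower at day 3, had a log2 fold change of -0.04 (SE 0.14) at day 10, and whether the days differ was not tested.

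**Figure D4:**
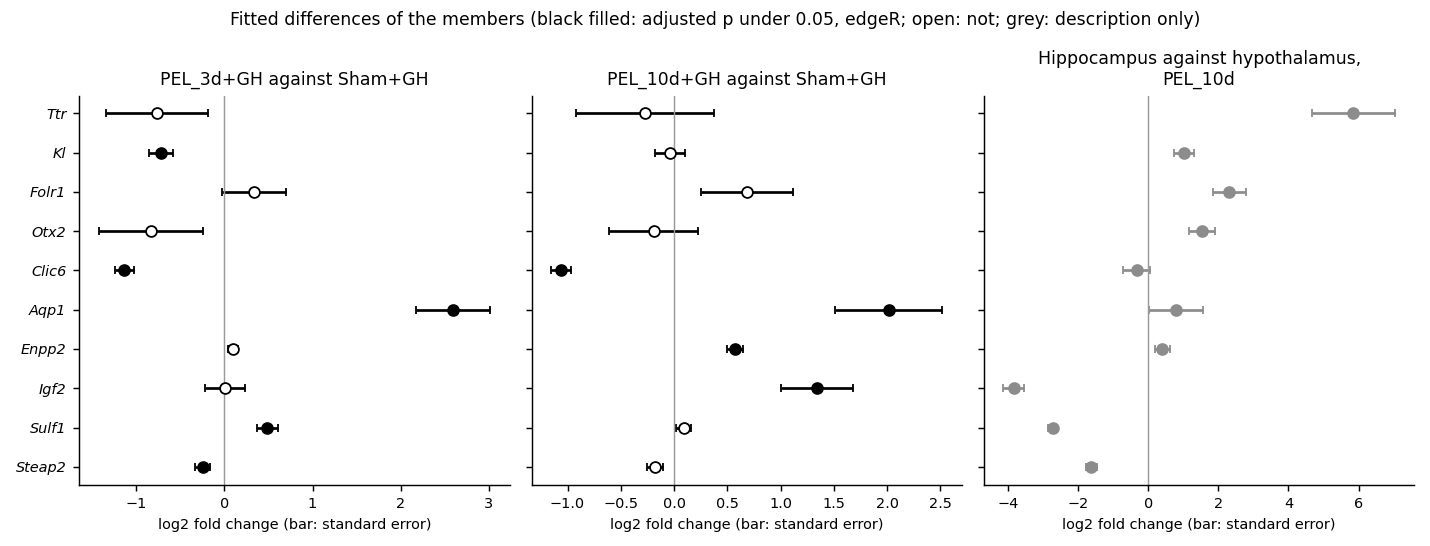
Log2 fold change of each member with its standard error in 3 comparisons fitted with edgeR, each on its own axis scale, with black filled points for an adjusted p under 0.05, open points for the others, and grey points in the comparison between tissues, which is a description. Clic6 lies below 0 and Aqp1 above 0 at both days in the mice given GH, and Ttr, Folr1, Otx2 and Kl lie to the right and Igf2, Sulf1 and Steap2 to the left between tissues.

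The same lesion without GH rests on hypothalamic Sham, whose first library carries hippocampal genes. At day 3, none of the 10 members was called with all libraries in edgeR, against 11.4% of 14726 genes (10.4% higher and 1.04% lower). At an unadjusted p under 0.05 there were 6 members beside 26.6% of genes, and DESeq2, which gave a p to 3 members, called 1 beside 2795 of 14726 genes. Without the library labelled Sham 1, 5 were called, 2 higher and 3 lower, against 22.2% and 18.2% of 14905 genes (40.5% in all). Aqp1 was 0.51, 0.63 and 0.90 FPKM against 0.30 and 0.12, with a log2 fold change of 1.66 (SE 0.49, adjusted p = 0.020), and Sulf1 had 0.35 (SE 0.10, adjusted p = 0.015). Clic6 was 3.59, 3.70 and 3.36 FPKM against 8.37 and 6.89, with -1.12 (SE 0.12, adjusted p = 4.9e-05), and Kl 3.01, 2.10 and 3.27 against 5.94 and 5.43, with -1.04 (SE 0.16, adjusted p = 0.00054). With the library labelled Sham 1 included, Aqp1 and Sulf1 had the opposite sign, at -4.20 and -0.36, and Clic6 and Kl stood at -3.42 and -4.32, none of them past the test.

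Igf2 at day 3 was 55.0, 33.0 and 47.3 FPKM against 62.7 and 76.0 in Sham 2 and 3, with a log2 fold change of -0.63 (SE 0.16, adjusted p = 0.011) without the library labelled Sham 1 and -1.26 (SE 0.45, adjusted p = 0.14) with it. In the mice given GH the change was 0.01 (SE 0.23), and the difference between these 2 values was not tested. At day 10 without GH, a comparison whose results were known when the list was chosen and which is given as a description, Igf2 was 213, 102 and 128 FPKM and Enpp2 96.1, 98.8 and 107 against 74.4 and 82.2 in Sham 2 and 3. All 3 PEL_10d libraries were above Sham 2 and 3 in both genes. Of the 10 members, none was called in edgeR with all libraries, against 1.84% of genes. At an unadjusted p under 0.05 there were 4 members beside 10.9% of genes, and DESeq2, which gave a p to 3 members, called none of them and 700 of 14610 genes. Without the library labelled Sham 1 there were 2 called members, Igf2 and Enpp2, both higher, against 7.97% of genes called higher and 1.43% lower (9.4% in all).

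Genes of other cell types were counted in the same hypothalamic comparisons with GH, in which 26.9% of all genes rose and 25.2% fell at day 3 and 17.7% rose and 13.3% fell at day 10. Of the 15 hypothalamic genes, 6 fell and 1 rose at day 3 with GH (median log2 fold change -0.53), and 5 fell and 2 rose at day 10 (median -0.30). Of 20 leptomeningeal genes, 10 rose and none fell at day 3 with GH (median log2 fold change 0.57), and 12 rose and none fell at day 10 (median 0.94). Col3a1, the fibrillar collagen, rose by 4.11 and 2.80, and Dcn by 1.91 and 1.40. The leptomeningeal sum was 155 to 258 FPKM in Sham+GH, 394 to 689 in PEL_3d+GH and 307 to 655 in PEL_10d+GH, and no gene of that list was at 0 in any of the 17 hypothalamic libraries. Of 8 endothelial genes, 5 rose at each day. Of 11 ependymal genes, 4 rose and none fell at day 3 (median 0.42), and 5 rose and none fell at day 10 (median 0.32). Of 10 oligodendrocyte genes, 3 rose at day 3, a share near that of all genes, and all 10 at day 10, with a median of 0.75, and their sum was 2241 to 2488 FPKM in Sham+GH and 4007 to 4507 in PEL_10d+GH.

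Choroid plexus genes varied in how far they stood below the libraries with high Ttr. Of the 24 further choroid plexus genes, 6 stayed under 1 FPKM in all 17 hypothalamic libraries, and 4 were at 0 in at least 1 of them, namely Kcne2, Slc4a5, Cox8b and Mfrp. Kcne2, a potassium channel subunit of the epithelium, was 77.1 FPKM in the library labelled hypothalamic Sham 1 and at most 0.29 in the 17 others. The list's sum was 70.0 to 120 FPKM there, against 1190 in the library labelled Sham 1, and Cab39l, Ace and Slc13a4 were at least 7.45 FPKM in each of the 17. Slc13a4, a sulfate transporter, reached 27.0 FPKM there, above the 10.9 and 13.9 FPKM of hippocampal Sham 2 and 3. In the mice given GH, 7 of 20 genes of the list rose and 3 fell at day 3, and 3 of 18 rose and 1 fell at day 10, beside 26.9% of all genes higher and 25.2% lower at day 3 and 17.7% and 13.3% at day 10.

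Across the 17 hypothalamic libraries, Enpp2 rose and fell with the summed oligodendrocyte genes, with a Pearson correlation of 0.931 in log2 FPKM and a Spearman correlation of 0.797. After the 2 libraries farthest from the median of the summed list were left out, the Pearson value was 0.908. Aqp1 ran with the leptomeningeal sum (Pearson 0.838, Spearman 0.787) and with the endothelial sum (0.835 and 0.767). Clic6 ran against the endothelial sum (-0.913 and -0.887) and the leptomeningeal sum (-0.735 and -0.745). Igf2 was at 0.530 and 0.468 with the leptomeningeal and 0.777 and 0.642 with the oligodendrocyte sum. Its highest values were with the sum of the 24 further choroid plexus genes, at 0.877 and 0.735. Enpp2 stood at 0.740 and 0.647 with that choroid plexus sum. Ttr followed none of these lists, with Pearson values between -0.308 and 0.312. The libraries share lesion group and day, so these values describe 17 points in 6 groups, and the part of any cell type in a member's level was not tested.

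**Figure D5:**
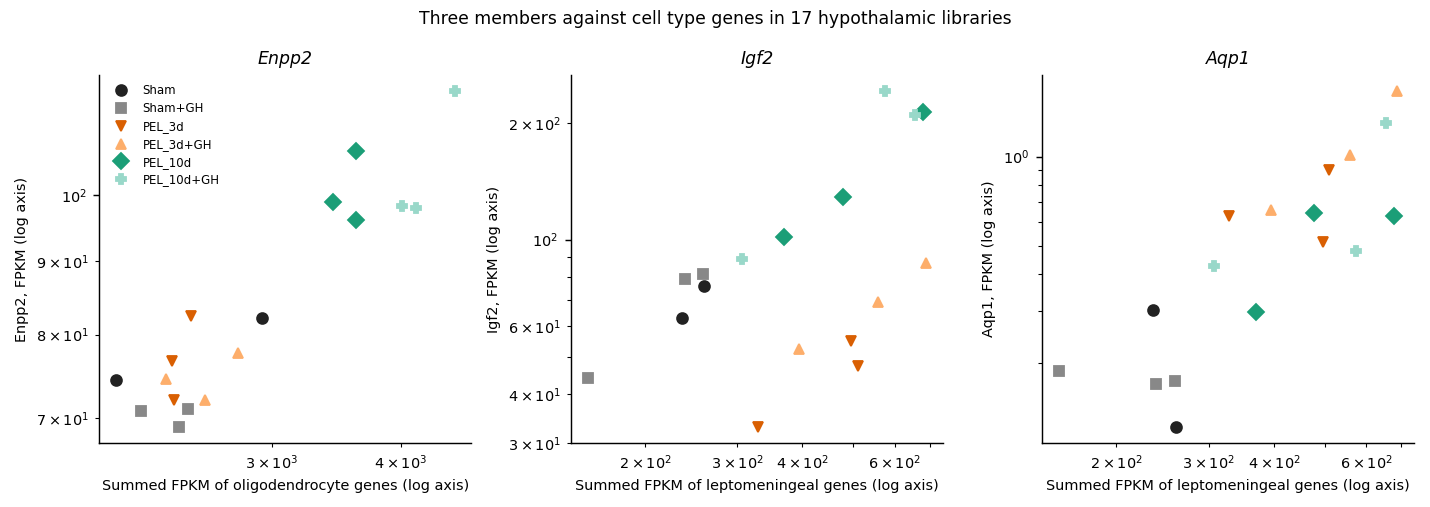
FPKM of Enpp2, Igf2 and Aqp1 against the summed FPKM of 10 oligodendrocyte or 20 leptomeningeal genes in 17 hypothalamic libraries, all on log axes, with 1 symbol per group. The 6 libraries of day 10 after PEL hold the highest Enpp2 and oligodendrocyte values, and at day 3 Igf2 stays at 33.0 to 87.0 FPKM while the leptomeningeal sum is 329 to 689.

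GH itself was compared within the hypothalamus at each stage. At day 3, PEL+GH against PEL gave no called member, against 0.027% of genes. At an unadjusted p under 0.05 there was 1 member, Igf2, beside 6.8% of genes, and DESeq2 called no member and 59 of 14798 genes. At day 10 no member was called either, against 0% of genes, with 1 member, Clic6, at an unadjusted p under 0.05 beside 6.14% of genes, and DESeq2 called no member and 39 of 14763 genes. For Sham+GH against Sham, where 9 members passed the filter on low counts and Aqp1 did not, none was called with all libraries, against 0% of genes. There 4 members had an unadjusted p under 0.05 beside 5.46% of genes, and DESeq2, which gave a p to 3 members, called none of them and 12 of 14404 genes. Without the library labelled Sham 1 no member was called by edgeR either, against 1.09% of genes, with 2 at an unadjusted p under 0.05 beside 15% of genes. The GH effect at day 10 minus that at day 3 was also tested, and again no member was called, against 0% of 15091 genes, with 1 (Clic6) at an unadjusted p under 0.05 beside 2.92% of genes and none by DESeq2. Clic6 at day 10 was at 3.59, 3.19 and 3.91 FPKM with GH and 5.71, 5.86 and 4.22 without it, a log2 fold change of -0.55 (SE 0.14, adjusted p = 0.66), and Igf2 at day 3 had 0.64 (SE 0.20, adjusted p = 0.66). A p that misses the threshold does not show that GH left these genes as they were.

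The members differed in how closely libraries of a group agreed. The median over 8 groups of the SD of log2(FPKM + 0.1) was 1.64 for Ttr, 0.82 for Otx2, 0.69 for Aqp1, 0.51 for Folr1 and 0.44 for Igf2. It was 0.29 for Kl, 0.22 for Clic6, 0.17 for Sulf1, 0.13 for Steap2 and 0.12 for Enpp2. The 8 groups include hypothalamic and hippocampal Sham with their libraries labelled Sham 1, where the SD of Ttr was 6.59 and 5.86. In the other groups the SD of Ttr ran from 0.44 to 2.38, so the medians and their order depend in part on these Sham groups. Otx2 had 4 to 40 counts and Folr1 5 to 26 counts in the 17 hypothalamic libraries, so their values there are imprecise. In these 2 genes the deposited FPKM was also not in proportion to the count, as FPKM per unit share of the library total varied 2.72-fold for Otx2 and 2.68-fold for Folr1 between libraries and at most 1.31-fold for the other 8.

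The genes whose FPKM ran most like that of Ttr over the 17 hypothalamic libraries were Dnajc21 (Spearman 0.86), Rab33b (0.74), Ahcyl1 (0.74), Zfp354a (0.73) and Cisd2 (0.72), out of 13860 genes. No member came near them. Steap2 ranked 544 (Spearman 0.48), Kl 1189 (0.41), Enpp2 1895 (0.35) and Otx2 2001 (0.34), and Sulf1 was at the far end at 12877 (-0.48). Ttr was at 5 to 215 counts in these libraries.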

How the data were processed

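The mRNA of 24 mouse brain libraries was sequenced, with 3 libraries in each of 8 groups taken from the sample labels. According to the paper's methods, reads were aligned with Hisat2, counted with featureCounts and tested with DESeq2, and the submitters' processing notes name GRCm38 and mm10. The deposited table holds estimated counts and FPKM values by gene for every library. The authors' deposited FPKM values adjust for the length of a gene and the size of a library and served as levels. Of the deposited expected counts, 8.22% are not whole, and these were rounded for the tests. Of 22274 genes, 22219 were matched to a symbol. No column of per-sample values was left unmapped.

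Tests were run in R 4.3.3 with edgeR 4.0.16 (quasi-likelihood test after TMM scaling, filterByExpr with a minimum count of 10, Benjamini-Hochberg adjustment over all genes tested, threshold 0.05), fitting only the groups compared. Tested on simulated data for PEL+GH against Sham+GH at day 3, with 14743 genes, this recovered 83% of genes changed by 1 and 98% of genes changed by 2 on the log2 scale. For hippocampus against hypothalamus at day 10 after PEL, with 14561 genes, it recovered 78% and 94%. Each simulation changed 200 genes picked over all levels, so it does not show recovery for members with few counts. Alternatives were DESeq2's size factors, DESeq2 1.42.0, no filter, the replicate number as a block, 1 fit over all 8 groups and each library left out in turn. The fit over all 8 groups without both libraries labelled Sham 1 was added after seeing the data. Levels were summarised with pandas 2.3.3 in Python 3.11.15 and drawn with matplotlib 3.10.9.

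The members and gene lists were chosen with earlier results of these data known. Every member is named, and of the list genes at most 4 per list, those with the highest mean FPKM, with the 5 genes most like Ttr by Spearman correlation among genes at 1 FPKM or more in at least 3 libraries. Avp, Oxt, Kcnj13, Cldn2, Slc4a5, Kcne2, Cox8b and Mfrp were named after their values were seen. Thalamic and habenular genes summed to 9.37 to 56.3 FPKM and were not used further. PEL_10d+GH 3 held the highest hypothalamic sum, of 6764 FPKM, of which Pomc alone was 5479 (at most 80.2 in any other library). Errors are the spread between libraries.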

Additional observations from a re-analysis of the deposited data

Results flagged for a closer look

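Without the library labelled Sham 1 of either tissue, every PEL_10d library lay below every Sham library in hippocampus and above every Sham library in hypothalamus for Otx2, Enpp2, Igf2 and Steap2 in FPKM. The hippocampal side was fixed by the choice of the members. Of 14048 genes with at least 1 FPKM in at least 3 libraries, 2456 lay below Sham in hippocampus in this way, and 24.8% of these lay above Sham in hypothalamus. The fitted log2 fold change in hippocampus minus that in hypothalamus was -3.90 for Otx2, -3.54 for Enpp2, -3.83 for Igf2 and -2.16 for Steap2. Without GH, Igf2 was also below hypothalamic Sham 2 and 3 in every hypothalamic PEL_3d library and above them in every PEL_10d one. The day 3 minus the day 10 value was -1.69. In the hypothalamus alone the fitted change was 1.09 for Otx2 (SE 0.38), 0.33 for Enpp2 (SE 0.08), 1.06 for Igf2 (SE 0.26) and 0.03 for Steap2 (SE 0.12), so the fit for Steap2 did not move beyond its error. In counts not scaled to depth, Steap2 was 473 in hypothalamic PEL_10d 1, below the 508 and 520 of Sham 2 and 3. These differences were not tested, 2 Sham libraries remained in each tissue, and Otx2 and Steap2 were not called in the hypothalamus. With all libraries, no member moved in opposite ways in this sense. Beyond the libraries labelled Sham 1, groups of 3 are too small for a search for single outlying libraries. The paper left an outlying hypothalamic Sham library out of its analysis, without giving its label.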

How the results depend on the processing

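Of the counts of called members, those for GH and for the GH effect between days stayed at 0 under every alternative. In hippocampal PEL_10d against Sham, 0 members were called, but 4 by DESeq2, 3 in a fit over all 8 groups and 10 in that fit without both libraries labelled Sham 1, and 0 to 9 with each library left out. Shares of all genes called in the fits over all 8 groups are not given here, so nothing is read from member counts in those fits beyond their change. In the hypothalamus at day 10 without GH the count of 0 became 3 in the fit over all groups and 0 to 2 with each library left out, and at day 3 it became 1 by DESeq2 (which gave a p to 3 members), 8 in the fit over all groups, 3 in that fit without both libraries, and 0 to 5 with each left out. The 9, 2 and 5 are the counts without the library labelled Sham 1. In the fit over all groups the count at day 3 with GH fell from 5 to 0, at day 10 with GH from 4 to 1 and between tissues from 7 to 4, and without both libraries labelled Sham 1 these were 4, 4 and 7. Leaving out each library gave 4 to 6, 3 to 4 and 7 to 8. Without the library labelled Sham 1, Enpp2 at day 10 without GH turned from -3.48 to 0.33 (0.35 in the fit over all groups without both, and down to -4.04 with another library left out), Aqp1 at day 3 from -4.20 to 1.66 (1.68, and down to -4.78) and Sulf1 from -0.36 to 0.35 (0.37, and down to -0.66). Of 192 values of single members with 1 library left out, 170 kept direction and call, and of 192 under the other alternatives 154 did. These cover 32 results of single members, namely those called with all libraries or without the library labelled Sham 1. A value that stayed uncalled also counted as kept.

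Whether the replicate numbers pair the libraries was left undecided. Same-numbered libraries correlated at -0.352 to 0.28 in the comparisons of 2 groups. These are deviations from means of 3 libraries, so they are bound to one another, and the libraries labelled Sham 1 weigh on those with Sham. All 6 libraries correlated best with their own number in Sham+GH against Sham and 0 to 4 of 6 in the others. With the replicate number as a block, no count of called members moved by over 1.5 times. Another pseudocount (1 FPKM) lowered the SD of Ttr from 1.64 to 1.13, and of the 5 genes most like Ttr, 2 were shared with the list over all 18 hypothalamic libraries and 4 with the list without a filter. Aqp1, Otx2 and Folr1 are limited by depth in the hypothalamus.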
